A study of Mus musculus with 36 samples.

Results

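The loci of 40 genes of DNA replication and the cell cycle were examined in open chromatin of mouse bone marrow-derived dendritic cells. A peak was taken as a member when its interval (mm10) overlapped the body of 1 of these genes or 2 kb to either side, and 167 of 119751 peaks met that rule, with at least 1 peak at each of the 40 genes. Of these, 147 lie in a gene body and 20 in a flank, and 15 also overlap another protein-coding gene, among them 6 start peaks (Mcm4 with Prkdc, Mcm7 with Ap4m1, Cdc45 with Ufd1, Pcna with Cds2, Aurka with Cstf1 and Cdk2 with Pmel), so these signals cannot be assigned to 1 gene. Peaks were not divided into exons and introns here. The genes were grouped by role into origin licensing (Mcm2 to Mcm7 and Cdc6), origin firing and the fork (Cdc45, Gins1, Gins2, Mcm10 and Pcna), nucleotide supply (Rrm1, Rrm2 and Tyms), G1 cyclins and kinases (Ccnd1, Ccnd2, Ccnd3, Ccne1, Ccne2, Cdk2, Cdk4 and Cdk6), E2F factors (E2f1, E2f2, E2f3, E2f7 and E2f8), S phase and mitosis (Ccna2, Ccnb1, Ccnb2, Cdk1, Cdc20, Aurka, Aurkb, Plk1, Bub1, Top2a and Mki67), and the inhibitor Cdkn1a.

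Chromatin was profiled by ATAC-seq, in which a transposase cuts open DNA and leaves sequencing adapters there, in 36 libraries that formed 18 groups of 2. The cells came from bone marrow of female C57BL/6 mice aged 6 to 8 weeks, grown with GM-CSF, and all stimulated groups were exposed for 6 h. The groups were an unstimulated control (Ctrl); 6 single ligands, which the labels name PAM (here P), LPS (here L), HMW (here H), SeV (here S), 3',3'-cGAMP (here cG) and depleted zymosan, here Z; 8 pairs (PL, PH, LH, PS, PcG, ScG, ZS and ZcG); and 3 triplets (PLH, PScG and ZScG). LPS is a lipid of the bacterial outer membrane, 3',3'-cGAMP a cyclic dinucleotide sensed through STING, zymosan a yeast cell wall preparation and SeV the Sendai virus. No allele, transgene or Cre was named. The labels call the libraries of a group duplicates without saying that they came from separate cultures or mice, so the p-values below measure only the spread between these libraries, which may be technical. GM-CSF cultures of bone marrow also hold macrophage-like cells and their precursors, and no sort was described.

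Entry into S phase starts with D-type cyclins, which join Cdk4 or Cdk6 and phosphorylate the retinoblastoma protein. E2F factors released by this step switch on the genes for the Mcm helicase, for deoxynucleotide synthesis and for cyclins E and A, while the atypical members E2f7 and E2f8 repress the same targets later. Cdkn1a (p21) blocks cyclin-Cdk complexes, and dendritic cells matured by microbial ligands are generally non-dividing.

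The cells' identity was checked first. All 11 dendritic cell markers (Itgax, Flt3 and Zbtb46 among them) had a peak at their start, with a median of 10.1 CPM per kb of peak, and so did all 5 macrophage markers (median 13.5). None of the 4 T and NK cell markers or the 3 B cell markers had one, against 2 of 6 neutrophil and progenitor genes, 2 of 4 mast cell and basophil genes and 2 of 3 erythroid genes. The summed level of the neutrophil and progenitor start peaks (S100a8 and Cebpe) was 24.7 and 28.3 CPM in the control libraries, 10.8 to 23.9 CPM in the 26 libraries outside the set described next, and 9.83 to 28.3 CPM over that set with control included. The other genes of that list (S100a9, Ly6g, Elane and Mpo) had no start peak, and the part of such cells in the results below was not tested. CPM here is the usual depth-scaled count of a peak, relative to a library's counts outside the mitochondrial genome and scaled by TMM, a method that sets libraries to a common level from the bulk of the peaks. Counts outside that genome ranged from 8181254 to 21985891 per library. Control and 4 stimulated groups (Z, ZcG, ScG and ZScG) had a mean mitochondrial share of 58.3% to 63.0%, and the other 13 groups had 44.4% to 54.5%. Single libraries of the 2 sets overlapped, at 57.3% to 63.1% and 44.1% to 58.1%. The former, called the control-like set below, also had a smaller share of counts in the start peaks of all genes (median 26.2% against 29.2%). A difference between control and a group of the other 13 therefore cannot be told apart from this split, and values are given for both sets where it touches them. The 17 stimulations share the same 2 control libraries.

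Promoters of these genes are shown for 6 members whose window held an E2F-type sequence and whose start peaks ran from never called to called in 14 of 17 stimulations. Sequences are from RefSeq (assembly GRCm38.p6) and span 250 bases before the annotated start to 30 bases from it on, 5′ to 3′ on the gene's strand. Capitals mark the matches to the searched words TTTCCCGC, TTTGGCGC and TTCCCGCC on either strand.
Mcm3, chr1:20820283-20820562, minus strand: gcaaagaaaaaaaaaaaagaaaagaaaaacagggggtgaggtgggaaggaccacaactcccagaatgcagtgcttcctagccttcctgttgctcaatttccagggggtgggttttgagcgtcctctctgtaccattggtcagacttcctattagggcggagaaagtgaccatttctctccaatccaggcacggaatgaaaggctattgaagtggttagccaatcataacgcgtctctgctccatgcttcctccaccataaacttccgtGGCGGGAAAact
E2f3, chr13:29986034-29986313, minus strand: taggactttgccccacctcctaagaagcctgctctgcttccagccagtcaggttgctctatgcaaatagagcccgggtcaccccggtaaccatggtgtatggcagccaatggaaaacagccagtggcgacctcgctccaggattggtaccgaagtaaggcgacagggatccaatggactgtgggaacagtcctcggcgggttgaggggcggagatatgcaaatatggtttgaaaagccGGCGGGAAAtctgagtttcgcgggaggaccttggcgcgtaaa
E2f7, chr10:110745189-110745468, plus strand: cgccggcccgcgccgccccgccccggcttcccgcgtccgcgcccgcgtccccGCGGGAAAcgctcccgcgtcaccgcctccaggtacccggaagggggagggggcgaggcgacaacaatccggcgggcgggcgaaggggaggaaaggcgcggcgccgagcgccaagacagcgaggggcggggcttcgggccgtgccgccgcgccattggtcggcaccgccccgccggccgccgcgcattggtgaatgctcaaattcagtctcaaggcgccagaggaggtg
Mcm6, chr1:128359676-128359955, minus strand: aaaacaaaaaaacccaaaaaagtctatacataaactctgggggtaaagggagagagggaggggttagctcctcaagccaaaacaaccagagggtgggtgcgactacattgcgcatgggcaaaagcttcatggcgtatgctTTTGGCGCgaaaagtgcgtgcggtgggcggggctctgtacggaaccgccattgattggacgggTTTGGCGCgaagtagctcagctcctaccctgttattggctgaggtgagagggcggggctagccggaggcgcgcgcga
Mcm5, chr8:75109259-75109538, plus strand: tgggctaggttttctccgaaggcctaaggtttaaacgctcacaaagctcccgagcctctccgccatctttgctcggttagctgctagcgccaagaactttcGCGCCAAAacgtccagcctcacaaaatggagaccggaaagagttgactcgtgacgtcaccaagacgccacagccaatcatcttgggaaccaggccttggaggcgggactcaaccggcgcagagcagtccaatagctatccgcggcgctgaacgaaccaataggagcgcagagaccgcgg
Rrm1, chr7:102441445-102441724, plus strand: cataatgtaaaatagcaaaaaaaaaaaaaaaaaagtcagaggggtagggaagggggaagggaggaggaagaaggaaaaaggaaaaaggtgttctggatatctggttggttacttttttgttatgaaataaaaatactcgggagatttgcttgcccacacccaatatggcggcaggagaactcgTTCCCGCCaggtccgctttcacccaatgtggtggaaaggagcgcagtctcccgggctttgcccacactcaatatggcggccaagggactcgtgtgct

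In Mcm3 and E2f3, 2 of the words overlap in a single run that starts 18 bases after and 12 bases before the start, respectively. Mcm6 holds 2 separate matches, 110 and 47 bases before the start. The single matches lie 149 bases before the start in Mcm5, 67 in Rrm1 and 198 in E2f7. The table of promoters matched 32 of the 40 genes, with 37 windows. An E2F word was found in 9 of these windows (24.3%), against 3.92% of 21263 windows of protein-coding genes. The CHR word TTTGAA occurred in 27% of the 37 windows against 15.4%, and CCAAT in 73% against 37.2%. The 37 windows also held more CpG dinucleotides (median 21 against 12), and a match describes the letters only. Mcm3, E2f3 and E2f7 carry the word under start peaks that fell in 11 to 14 stimulations with TMM, whereas the start peaks of Mcm5 and Rrm1 carry it and were never called and that of Mcm6 was called once, higher. With total counts this contrast was different: Mcm3, E2f3 and E2f7 fell in 5, 0 and 4 stimulations, and Mcm5, Rrm1 and Mcm6 rose in 4, 3 and 8. Mcm7, Cdk2 and Cdc6 also carry the word, and their start peaks were never called lower with TMM. The windows of Cdk1, Aurka, Ccne1 and E2f8 held no E2F word. Their start peaks fell in 11, 10, 10 and 10 stimulations with TMM, and in 0, 0, 0 and 1 with total counts.

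Of the 167 peaks, 165 passed the filter on low counts, and 92 of them (55.8%) differed from control in at least 1 of the 17 stimulations (edgeR quasi-likelihood test, Benjamini-Hochberg adjusted p under 0.05 over all 119464 tested peaks). The share over all tested peaks was 66.6%. Of the 92, 40 were only higher, 51 only lower and 1, the start peak of Mcm4, was higher in ScG and lower in P. Of the 40 start peaks 17 were only lower and 9 only higher, and of the other 125 peaks 34 were only lower and 31 only higher. The 3 peaks called higher in the most stimulations lay away from starts, at Cdk6 and Ccnd3. Start peaks were also the higher ones in level, with a median of 24.4 CPM against 1.89 CPM for the other 125 peaks. Of the 40, 31 cover an annotated start, that of Cdc6 lies within 1 kb, and 8 were assigned to a gene end without strand information (Mcm4, Gins1, Gins2, Ccnd1, Ccnd2, Ccne2, Ccna2 and Aurkb). In bulk chromatin, fewer cells with an open site and a less open site in each cell cannot be told apart.

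Each stimulation was set against control. Among single ligands, P called 30 of 165 member peaks (12 higher, 18 lower) and 20.5% of all peaks. L called 25 (9 higher, 16 lower), against 22.3% of all peaks. H called 20 (6 higher, 14 lower), against 10.7%. As percentages of the members these are 18.2%, 15.2% and 12.1%. In this fit H alone of all 17 stimulations called a larger share of members than of all peaks, with no test of that difference. The members' share in H fell with abundance offsets and with each left-out library, as given with the limits. It was not set beside that of all peaks there. S called 33 (15 higher, 18 lower; 20% of members against 27.9% of all peaks). For cG the count was 25 (12 higher, 13 lower; 15.2% against 23.3%). Z called 4 (3 higher, 1 lower; 2.42% against 5.91%), the fewest of any stimulation.

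Pairs of ligands called between 18 and 42 member peaks. PL called 42 (13 higher, 29 lower), or 25.5% of members against 27.3% of all peaks. PH called 37 (11 higher, 26 lower), or 22.4% against 26.3%. LH called 29 (9 higher, 20 lower), or 17.6% against 21.8%. These 3 pairs, all outside the control-like set, called more members lower than higher with TMM, but with total counts PL called 28 higher and 10 lower, PH 23 and 4 and LH 23 and 5. PS called 40 (16 higher, 24 lower), or 24.2% against 33.4%. PcG called 37 (15 higher, 22 lower), or 22.4% against 32.9%. ScG called 23 (11 higher, 12 lower), or 13.9% against 27.7%. ScG is in the control-like set, as is ZcG, which called 18 (8 higher, 10 lower), or 10.9% against 21.6%. ZS called 32, 16 in each direction, or 19.4% against 28.3%.

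Among triplets, PLH called 40 (10 higher, 30 lower), or 24.2% of members against 29.7% of all peaks. PScG called 44, 22 in each direction, or 26.7% against 37.1%. ZScG called 35 (14 higher, 21 lower), or 21.2% against 32.3%. The share called in either direction was thus smaller at the member loci than over all peaks in 16 of 17 stimulations. The share called higher was smaller at members in every stimulation. The share called lower was larger at members in P (10.9% against 9.45%), H (8.48% against 5.46%) and PL (17.6% against 13.5%). It was also larger in PH (15.8% against 12.8%), LH (12.1% against 10.5%) and PLH (18.2% against 14.7%), and smaller in the rest. None of these differences was tested. By role, the share called in at least 1 stimulation ran from 37.5% (nucleotide supply) to 60% (licensing and Cdkn1a), under the 66.6% of all peaks in each of the 7 roles. At 6 genes (Rrm1, Ccnb1, Ccnb2, Cdc20, Plk1 and Bub1) no peak was called in any stimulation. Leaving out control replicate 1 brought P from 18.2% to 10.3%, H from 12.1% to 4.24% and PL from 25.5% to 15.2%, and the other such changes are given with the limits.

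**Figure D1:**
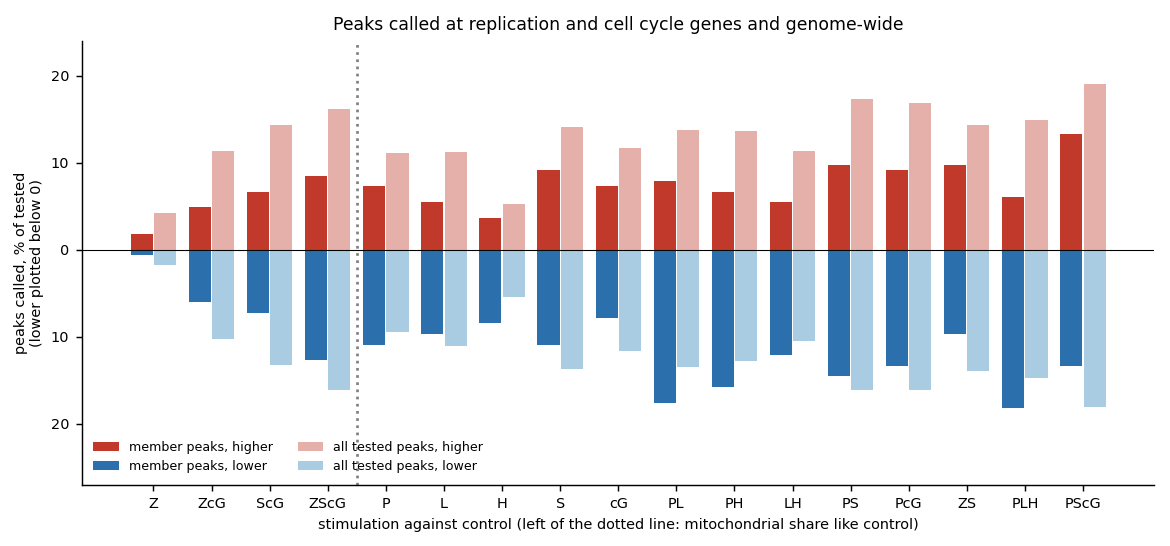
Share of the tested member peaks (dark bars) and of all tested peaks (pale bars) called higher (upward) or lower (downward) than control in each of the 17 stimulations, in percent of peaks. Stimulations left of the dotted line had a mitochondrial share like that of control. The share called in either direction is smaller for members than for all peaks in 16 of 17. The share called higher is smaller for members in every stimulation. The share called lower is larger for members in P, H, PL, PH, LH and PLH and smaller in the rest.

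At gene starts, the direction depended on how libraries were scaled and on the set. With TMM, summed over the 17 stimulations, start peaks were called lower 136 times and higher 38 times, with total counts 16 and 144 times, and with offsets that depend on peak abundance 50 and 50 times. Total counts moved the median of all peaks by up to 0.45 on the log2 scale. Relative to the median of all peaks, the start peaks' median lay lower in 15 of 17 stimulations under TMM (-0.31 to 0.03) and under total counts (-0.31 to 0.02), but in 9 of 17 with abundance offsets (-0.08 to 0.04). Over all member peaks, 39.3% of calls were higher with TMM, 80.7% with total counts and 49.3% with abundance offsets. With TMM, all tested peaks were called higher more often than lower in every stimulation but H (5.21% and 5.46%). Their direction under the other scalings is not given here, so the change between scalings is not particular to the members. Of all start peaks, 1.74% to 33.3% were called lower with TMM, 1.03% to 14.4% with total counts and 2.47% to 24.5% with abundance offsets. The 13 stimulations outside the control-like set called 5 to 15 start peaks lower, and the 4 inside it called 0 to 8. Start peaks of protein-coding genes at large moved alike: in those 13, their median log2 fold change was -0.26 to -0.0046, beside -0.27 to 0.01 for the 40, and 15.6% to 33.3% of them were called lower. The members' share of lower start peaks exceeded that of all start peaks in 6 of 17 stimulations.

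**Figure D2:**
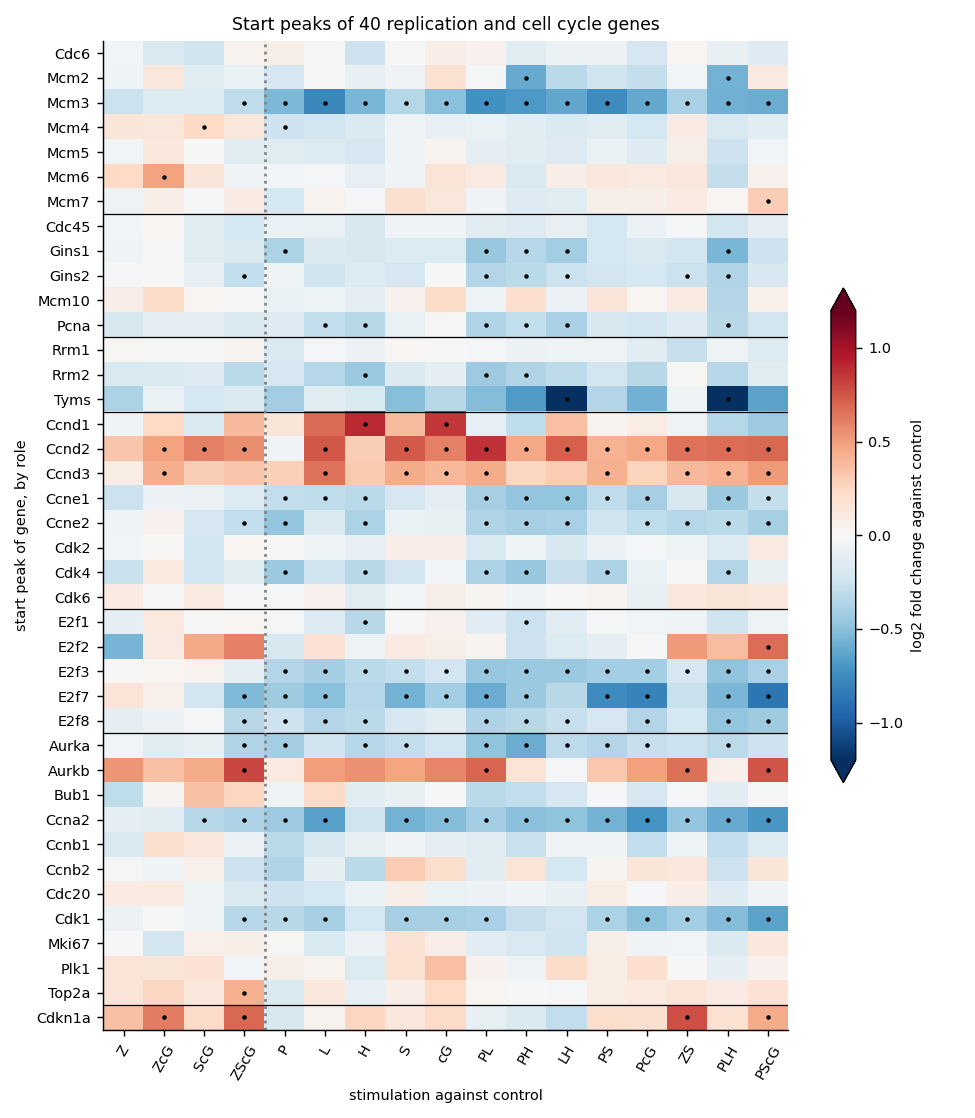
Log2 fold change against control of the start peak of each of the 40 genes (rows, grouped by role) in the 17 stimulations (columns), with black dots where the adjusted p was under 0.05. Under TMM, Ccnd2 and Ccnd3 are the rows with the most rises and Mcm3, Ccna2 and E2f3 those with the most falls, of which E2f3 has none under total counts.

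The licensing genes encode the Mcm2-7 helicase ring and Cdc6, which loads it on origins. Of their 15 tested peaks 4 were higher and 6 lower in at least 1 stimulation, with Mcm4 counted in both, and 6 were never called (9 higher and 2 lower with total counts, 4 and 6 with abundance offsets). The share called with TMM was 60%, against 66.6% of all tested peaks. Mcm3, a subunit of the ring, had both of its peaks lower, while the start peak of Mcm2 was lower in 2 stimulations (PH and PLH) and those of Mcm6 and Mcm7 were each higher in 1 (ZcG and PScG). The start peaks of Mcm5 and Cdc6 were not called in any. With total counts the starts of Mcm6, Mcm7, Mcm5 and Cdc6 were higher in 8, 7, 4 and 4 stimulations, and that of Mcm2 was lower in 0 and higher in 1.

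The Mcm3 start peak (chr1:20819564-20820721, containing the promoter printed above) held 73.5 and 59.3 CPM in the 2 control libraries. The L libraries were lowest, at 36.6 and 41.0 CPM, followed by PS at 40.9 and 37.8 and PL at 41.9 and 37.9. In the 26 libraries outside the control-like set, values ran from 36.6 to 57.8 CPM, and in the 8 stimulated libraries inside it from 50.1 to 60.2. All 26 libraries of the other set therefore lay below both control libraries, whereas the control-like ones reached past the lower control. The peak fell in all 13 stimulations of the former (mean log2 fold change -0.59; L: -0.77 ± 0.10 (SE), adjusted p = 5.51e-10) and in 1 of 4 of the latter (mean -0.22), ZScG at -0.31. With total counts 5 stimulations were called lower and with abundance offsets 12. Without control replicate 1, 9 of the 14 calls were kept.

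A smaller peak in the Mcm3 body (chr1:20817091-20817575, 2.98 kb into the gene) showed a larger relative fall. Control libraries held 7.10 and 7.72 CPM, and the 34 stimulated libraries 1.85 at the lowest, 2.92 at the median and 5.25 at the highest, so none reached control. It fell in 16 of 17 stimulations, from -1.02 in L to -1.84 ± 0.35 in ScG (adjusted p = 7.94e-06), and the value in Z was -0.72 (adjusted p = 0.189). The mean was -1.32 inside the control-like set and -1.33 outside it. Of the 16 calls, 14 were kept without control replicate 2 and 11 when each of the stimulation's own libraries was left out.

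At the genes of origin firing and the fork, 8 of 16 tested peaks were lower, 1 was higher and 7 were never called under TMM, against 5 lower and 9 higher with total counts and 6 and 2 with abundance offsets. The share called under TMM was 56.2%, against 66.6% of all tested peaks. The start peaks of Gins1 and Gins2, subunits of the GINS part of the replicative helicase, were lower in 5 and 6 stimulations, and that of Pcna, the sliding clamp, in 6, while those of Cdc45 and Mcm10 were called in none. With total counts none of these 5 starts was lower in any stimulation, and Mcm10 was higher in 6, Cdc45 in 3 and Gins2 and Pcna in 2 each. With abundance offsets the Gins1 start was lower in 1 and the Gins2 and Pcna starts in none. The 5 stimulations that lowered the Gins1 start (chr2:150909340-150910119) were P, PL, PH, LH and PLH. Control held 28.7 and 26.7 CPM there and PLH 21.6 and 16.1 (-0.55 ± 0.14, adjusted p = 0.000629). All 10 libraries of these 5 groups were below both controls, at 16.1 to 23.8 CPM. No call at this peak was kept under every left-out library: 1 without control replicate 1, 3 without control replicate 2, and 0 without the stimulation's own libraries in turn.

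A second peak in Gins1 (chr2:150921389-150922578, 12.25 kb from the start peak) followed other ligands. Control held 30.7 and 26.0 CPM. With S the 2 libraries held 15.3 and 15.9, with PS 16.7 and 16.7, with ZS 14.6 and 12.7, with ScG 16.9 and 22.6, with PScG 16.4 and 20.3, and with ZScG 11.3 and 11.2. These libraries all lay below both controls, and they are the 6 groups that received SeV. With cG the libraries held 19.4 and 23.7, with ZcG 19.1 and 18.3, and with PcG 23.6 and 24.1. With P they held 34.7 and 34.5, with L 27.7 and 27.7, with H 23.8 and 24.5, with Z 30.3 and 28.2, with PL 28.2 and 26.4, with PH 29.3 and 28.1, with LH 31.0 and 33.4, and with PLH 25.2 and 24.9. Groups without SeV or cGAMP thus spread to either side, H and PLH below both controls and P and LH above both. The peak fell in 8 stimulations, the 6 with SeV together with cG and ZcG, most in ZScG (-1.33 ± 0.15, adjusted p = 1.62e-13) and S (-0.86 ± 0.13, adjusted p = 5.01e-08). P stood at 0.29 (adjusted p = 0.093) and PcG at -0.25 (adjusted p = 0.135). Adding S to P lowered it by test (PS against P -1.05 ± 0.13, adjusted p = 4.68e-12), and ZScG was lower than ZcG (-0.73) and ScG (-0.81). With total counts 6 stimulations were lower and 4 higher.

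Other peaks of this role were small. A flanking peak 2.01 kb before the start of Mcm10, a factor that activates the helicase, held 2.73 and 3.38 CPM in control and 0.638 to 2.41 in stimulated libraries (chr2:5014656-5014945). It fell in 9 stimulations, most in ZScG (-1.91 ± 0.56, adjusted p = 0.00414). None of these 9 calls was kept under every left-out library. A peak in Cdc45, which joins Mcm and GINS in the active helicase, held 2.62 and 2.99 CPM in control (chr16:18789046-18789323) and 0.323 and 0.461 in ZS, and fell in 7 stimulations (ZS -2.80 ± 0.64, adjusted p = 0.000225). Every stimulated library lay below both controls at these 2 peaks, and at Cdc45 2 of the 7 calls were kept under every left-out library.

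Nucleotide supply genes had 8 tested peaks, of which 3 were lower, 0 higher and 5 never called, against 1 lower and 3 higher with total counts and 2 and 0 with abundance offsets. With TMM 37.5% were called, against 66.6% of all tested peaks. Both peaks of Rrm1, the large subunit of ribonucleotide reductase, were never called (its start was higher in 3 with total counts), and the start peak of Rrm2, the small subunit, was lower in 3 stimulations and in none under either other scaling. The start peak of Tyms, thymidylate synthase (chr5:30073330-30073791), was the lowest of the 40 in level. Control held 2.95 and 2.80 CPM there, LH 0.928 and 0.793, and PLH 1.43 and 0.811, while the other stimulated libraries held 1.29 to 3.66. It fell in LH (-1.72 ± 0.45, adjusted p = 0.00221) and PLH (-1.33 ± 0.44, adjusted p = 0.0123), and LH was also lower than H alone (-1.54). With total counts 1 of these calls passed, and without control replicate 1 also 1.

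The G1 cyclins and kinases carried the largest rises. Of their 77 tested peaks 26 were higher, 20 lower and 31 never called (40 higher and 6 lower with total counts, 26 and 17 with abundance offsets). With TMM 59.7% were called in at least 1 stimulation, against 66.6% of all tested peaks. Cdk6, the kinase partner of D-type cyclins, had 38 tested peaks along its body. Of these 13 were higher, 11 lower and 14 never called, beside the same 66.6% of all tested peaks called. The Cdk6 start peak stayed between -0.15 and 0.14 and was never called (higher in 5 with total counts). At Ccnd3 (cyclin D3) 7 of 16 peaks were higher and 2 lower, at Ccnd2 (cyclin D2) 3 of 8 and 2, and at Ccnd1 (cyclin D1) 3 of 6 and 1. The start peaks of the cyclins E, Ccne1 and Ccne2, were each lower in 10 stimulations under TMM, but lower in none with total counts and in 0 and 1 with abundance offsets. That of Cdk4, the other kinase partner of cyclin D, was lower in 6, in 1 with abundance offsets, and higher in 3 with total counts. The start peak of Cdk2, the kinase partner of cyclin E, was never called (higher in 4 with total counts), and a flanking peak of Cdk2 that also lies in Rab5b and Pmel was lower in 9 (mean -0.25).

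The peak with the largest rise lies 51.2 kb into Cdk6 (chr5:3394806-3395342). The control libraries held 0.765 and 0.289 CPM there (7 and 3 counts), and the 34 stimulated libraries held 1.58 at the lowest, 4.74 at the median and 7.87 at the highest. P was highest, at 7.10 and 7.87 CPM, and ZS lowest, at 2.69 and 1.66. Every stimulated library was above both controls, in both sets. The peak rose in all 17 stimulations, by 2.04 (ZS) to 3.84 ± 0.42 (P, adjusted p = 1.82e-14), with a mean of 2.64 in the control-like set and 3.15 outside it. The fold rests on the 10 control counts. Leaving out control replicate 2 kept 14 of the 17 calls.

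A stronger peak 12.05 kb into Cdk6 (chr5:3355414-3356479) held 7.43 and 7.33 CPM in control. Stimulated libraries held 6.96 to 26.6 with a median of 18.7, and only Z, at 6.96 and 11.3, had a library that did not lie above control. It rose in 16 stimulations, most in PS (1.76 ± 0.17, adjusted p = 4.08e-18), and stood at 0.33 in Z (adjusted p = 0.38). All 16 calls were kept under every left-out library. Further along, the peak 117.7 kb into the gene (chr5:3461272-3461888) fell from 7.21 and 6.66 CPM in control to a median of 2.80 CPM, with no overlap, in 13 stimulations (mean -1.24). Both directions therefore occurred within the same gene body, at separate peaks. Calls in both directions were found at 8 of the 40 genes.

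**Figure D3:**
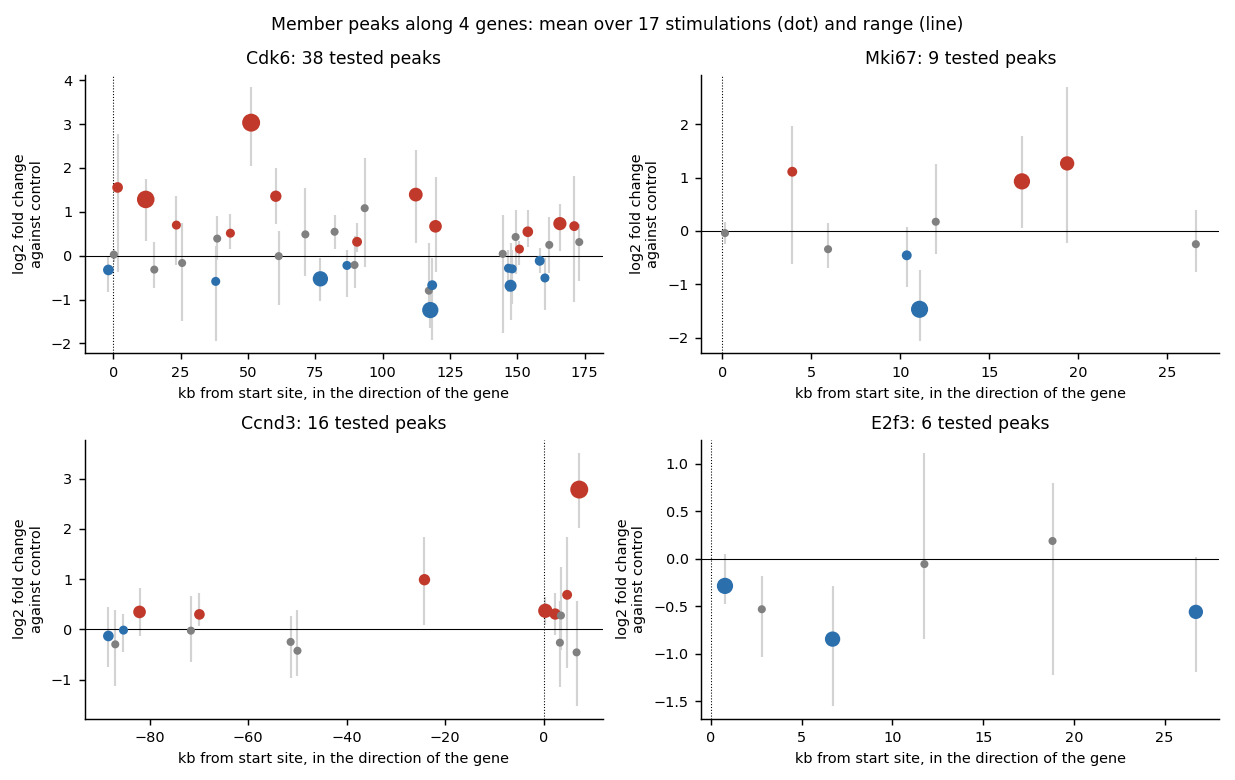
Log2 fold change against control of each tested peak along Cdk6, Mki67, Ccnd3 and E2f3, plotted by distance from the start site in kb in the gene's direction; dots are means over the 17 stimulations, lines their range, red and blue peaks were called higher or lower in at least 1 stimulation, and dot size grows with the number of stimulations called. Of its 38 tested peaks Cdk6 holds 13 rising and 11 falling, while E2f3 holds 3 falling peaks and none that rose. Over all tested peaks 66.6% were called in at least 1 stimulation. At Ccnd3 the distance is from the start covered by its start peak, and another annotated start lies upstream.

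The start peak of Ccnd2 (chr6:127149024-127152896) was the most often raised of the 40. Control held 23.1 and 23.3 CPM. PL held 44.5 and 39.8, L 40.2 and 37.6, and S 38.1 and 39.2, while P held 23.3 and 22.0. Stimulated libraries lay above both controls in 16 of 17 groups, with P as the exception. It rose in 14 stimulations (PL 0.87 ± 0.12, adjusted p = 8.17e-10), in 3 of 4 of the control-like set and 11 of 13 outside it. P stood at -0.04 (adjusted p = 0.876), H at 0.30 (0.103) and Z at 0.33 (0.105). Partners moved it above P alone by test: PL by 0.90 (adjusted p = 5.28e-10), PH by 0.50, PcG by 0.50 and PS by 0.45. All 14 calls were kept under every left-out library.

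At Ccnd3 a peak that also lies in Bysl (chr17:47600500-47600912, 7.24 kb from the Ccnd3 start covered by its start peak) held 0 and 4 counts in the control libraries, or 0 and 0.386 CPM. All stimulated libraries lay above these, at 0.629 to 3.10 CPM with a median of 1.5. It rose in all 17 stimulations in the fit (S 3.52 ± 0.68, adjusted p = 9.53e-06), and 8 of these calls were kept without control replicate 1. Another annotated start of Ccnd3 lies upstream, near chr17:47505051, outside the start peak of this gene. The Ccnd3 start peak (chr17:47593107-47594528) held 15.8 and 16.6 CPM in control and 16.2 to 27.1 with a median of 21.2 in stimulated libraries. It rose in 9 stimulations (L 0.65 ± 0.14, adjusted p = 0.00018). Only 1 of the 9 was kept under every left-out library, and 3 passed when libraries were thinned to equal depth.

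The Ccnd1 start peak was low (chr7:144939583-144940500, 3.5 and 3.38 CPM in control). H held 7.31 and 5.43 CPM and cG 6.37 and 6.02, all above control, while PH held 1.97 and 3.54. It rose in H (0.90 ± 0.32, adjusted p = 0.0474) and cG (0.85 ± 0.32, adjusted p = 0.0385), and PH was lower than H (-1.2, adjusted p = 0.0034). Neither of the calls against control was kept without control replicate 1 or without control replicate 2. A flanking peak of Ccnd2 (chr6:127123016-127123399) held 7 and 4 counts in control and 0 in both Z libraries, where it was called lower (adjusted p = 0.0481). This call was lost without either control library.

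All 5 E2F genes had a called start peak, 4 of them lower and 1 (E2f2, in 1 stimulation) higher. Of the 21 tested peaks of this group 8 were lower, 2 higher and 11 never called, against 6 lower and 6 higher with total counts and 6 and 4 with abundance offsets. The share called with TMM was 47.6%, against 66.6% of all tested peaks. The start of E2f1, an activator, was lower in 2 stimulations (H and PH), that of E2f3, another activator, in 13, and those of the repressors E2f7 and E2f8 in 11 and 10. At E2f3 no start-peak call passed under total counts or abundance offsets, at E2f8 1 passed under each, and at E2f7 4 and 11 did. The E2f1 start was higher in 6 stimulations with total counts.

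The E2f3 start peak (chr13:29983529-29987059), the largest of the 40 in level, held 186 and 167 CPM in control. The 8 stimulated libraries of the control-like set held 161 to 184 CPM, and the 26 others 122 to 158. The 2 sets did not overlap, and control lay with the former. The peak fell in all 13 stimulations of the other set (mean -0.37) and in none of the 4 of the control-like set (mean -0.01). PScG, outside the set, was lower than ScG, inside it, by 0.43 (SE 0.081, adjusted p = 5.36e-05). The mitochondrial share moves with this peak, and its part in the result was not tested.

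At the E2f7 start (chr10:110744822-110745911) control held 34.1 and 31.2 CPM. PScG held 16.3 and 19.2 and PcG 20.8 and 16.5, while Z held 33.1 and 39.2. It fell in 10 of 13 stimulations outside the control-like set, most in PScG (-0.87 ± 0.14, adjusted p = 2.46e-08), and inside it in ZScG (22.8 and 22.3 CPM, -0.53 ± 0.14, adjusted p = 0.00134). ZScG was also lower than ZcG within that set (-0.59, adjusted p = 0.0057), where ZcG held 38.1 and 30.2 CPM. Inside the E2F genes, peaks 2.7 kb into E2f2 (mean -1.36), 6.7 kb into E2f3 (-0.85) and 26.7 kb into E2f3 (-0.56) fell in 10, 11 and 9 stimulations, peaks named after their values were seen.

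Genes of S phase and mitosis had 23 tested peaks, of which 7 were lower, 5 higher and 11 never called, against 5 lower and 13 higher with total counts and 7 and 6 with abundance offsets. With TMM 52.2% were called, against 66.6% of all tested peaks. The start peaks of Ccna2 (cyclin A2), Cdk1 (its mitotic kinase partner) and Aurka (a spindle kinase) were lower in 14, 11 and 10 stimulations (5, 0 and 0 with total counts, 10, 7 and 3 with abundance offsets). Those of Ccnb1, Ccnb2, Cdc20, Plk1, Bub1 and Mki67 were never called, and with total counts they were higher in 1 to 6. Aurkb, a kinase of the chromosomal passenger complex, had a start peak higher in 4 stimulations, and that of the topoisomerase Top2a was higher in 1 (10 and 8 with total counts).

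The Ccna2 start peak (chr3:36571396-36572583) held 98.4 and 84.5 CPM in control. PcG held 58.3 and 53.9, PScG 57.5 and 55.6 and L 52.0 and 63.8, while Z held 85.0 and 84.1 and ZcG 90.9 and 75.4. Stimulated libraries ran from 52.0 to 90.9 with a median of 65.5, and in 15 of 17 groups both lay below both controls. It fell in 14 stimulations (PcG -0.70 ± 0.10, adjusted p = 5.77e-10), 12 of 13 outside and 2 of 4 inside the control-like set. With total counts 5 stimulations passed and with abundance offsets 10, and 9 calls were kept under every left-out library. A peak 1.62 kb into Cdk1, named after its values were seen, fell in 12 stimulations (mean -0.90).

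Mki67, whose product Ki-67 coats mitotic chromosomes and is the common marker of dividing cells, had a start peak that was never called (-0.24 to 0.17) and 9 tested peaks in all, of which 3 were higher and 2 lower. The peak 16.8 kb in (chr7:135699008-135700088) held 7.54 and 5.21 CPM in control. P held 21.6 and 22.1, ScG 21.3 and 18.9, PScG 19.6 and 19.5, S 18.8 and 13.8, PS 15.4 and 15.5, cG 12.6 and 13.9, PcG 12.6 and 12.8, and PH 12.96 and 12.8. These groups lay well above both controls. H held 10.7 and 11.5, Z 9.84 and 12.9, PL 12.3 and 10.6, PLH 10.8 and 9.96, ZScG 10.8 and 12.5, ZS 8.82 and 8.66 and ZcG 8.81 and 6.57. L held 7.00 and 6.42 and LH 6.43 and 6.82, within the control range. The peak rose in 13 stimulations (P 1.79 ± 0.19, adjusted p = 2.73e-15) and not in L (0.08, adjusted p = 0.832), LH (0.06, adjusted p = 0.873), ZS (0.46, adjusted p = 0.0894) or ZcG (0.28, adjusted p = 0.41). Adding L to P lowered it (PL against P -0.93, adjusted p = 2.23e-05), and PL was higher than L (0.78, adjusted p = 0.0097). Of the 13 calls 8 were kept without control replicate 2.

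The neighbouring peak 19.4 kb into Mki67 (chr7:135696579-135697441) held 1.2 and 1.35 CPM in control, 8.44 and 8.25 in PScG, 6.60 and 7.43 in ScG and 6.79 and 5.56 in P. It rose in 9 stimulations (PScG 2.70 ± 0.39, adjusted p = 1.42e-09). The ZScG libraries disagreed, at 6.37 and 0.827 CPM, and without replicate 1 the ZScG value of 1.55 turned to -0.62. Another peak, 11.1 kb in (chr7:135705110-135705491), fell in 15 stimulations (mean -1.47), from 5.57 and 3.38 CPM in control to 0.656 to 2.81 CPM in stimulated libraries. None of these reached control, and 5 of the 15 calls were kept without control replicate 1.

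The start peak of Cdkn1a (chr17:29093461-29096051) held 31.5 and 28.2 CPM in control. ZS held 49.0 and 52.8, ZScG 46.0 and 50.2, ZcG 42.0 and 49.2, PScG 40.05 and 41.3 and Z 41.1 and 35.1. The 4 groups that received zymosan, alone or in combination, were all above both controls, as were H, cG, PS, PcG, ScG, PLH and PScG. The single ligands other than zymosan held 24.2 and 28.0 (P), 28.9 and 32.5 (L), 33.3 and 38.0 (H), 34.7 and 30.8 (S) and 36.5 and 33.4 (cG). Among pairs, PL held 26.1 and 30.3, PH 27.4 and 25.5, LH 24.7 and 23.7, PS 33.7 and 35.3, PcG 33.0 and 35.1 and ScG 33.1 and 36.6, and the triplet PLH held 34.6 and 32.8. Both libraries of P, PH and LH lay below both controls.

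The Cdkn1a start peak rose in ZS (0.77 ± 0.12, adjusted p = 2.47e-08), ZScG (0.69 ± 0.12, adjusted p = 8.57e-07), ZcG (0.62 ± 0.12, adjusted p = 2.02e-05) and PScG (0.45 ± 0.12, adjusted p = 0.00107), and stood at 0.35 in Z (adjusted p = 0.0648). By mean mitochondrial share ZcG and ZScG are in the control-like set and ZS and PScG are not, although 1 ZS library, at 58.1%, lay within that set's range of 57.3% to 63.1%. Zymosan raised it on top of S (ZS against S 0.64, adjusted p = 2.86e-05), cG (ZcG against cG 0.39, adjusted p = 0.041) and ScG (ZScG against ScG 0.46, adjusted p = 0.0282), and S raised it on top of P (0.40). Of these comparisons, ZcG against cG sets groups of different mitochondrial sets against each other. H with P or L was lower than H alone (-0.43 and -0.55). All 4 calls against control were kept under every left-out library, and with total counts 11 stimulations and with abundance offsets 8 were called higher.

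Pairs were then set against each of their single ligands. In at least 1 of these 16 comparisons 59 of 165 member peaks (35.8%) were called, against 42.5% of all peaks, with 21 only higher, 28 only lower and 10 in both directions. PS against P called the most, 25 (9 higher, 16 lower, or 15.2% of members against 18.1% of all peaks). LH against L called 0 members, against 0.0645% of all peaks. Beside Gins1, Ccnd2 and Mki67, the 25 of PS against P included 8 peaks along Cdk6, of which 2 were higher.

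Triplets were set against each of their pairs, and 14 of 165 member peaks (8.48%) were called in at least 1 of the 9 comparisons, against 8.19% of all peaks. PScG against ScG called 7 members, all lower and all start peaks (Mcm3, Mcm4, Ccna2, Cdk1, E2f3, E2f7 and E2f8), or 4.24% against 4.53% of all peaks. Of the 40 member starts 17.5% were thus lower, while of all start peaks 10.8% were called lower and 1.48% higher. PScG and ScG lie in different mitochondrial sets. Within the control-like set, ZScG against ZcG called 5, all lower (the start peaks of Mcm6 and E2f7 and peaks inside Gins1, Cdk1 and Cdc45), or 3.03% against 2.79%. Mki67 rose in PScG over PS at the peak 19.4 kb in (1.28, adjusted p = 0.0169) and over PcG at the peak 16.8 kb in (0.62, adjusted p = 0.0487). In 3 of the 9 comparisons no member was called, and few peaks were called anywhere. The shares of all peaks there were 0.00084% (PLH against PL), 0.248% (PLH against PH) and 0.0586% (ZScG against ZS).

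Interactions asked whether a combination departed from the sum of the log2 fold changes of its parts. In at least 1 of the 8 pair interactions 27 members (16.4%) were called, against 21.9% of all peaks, 11 above and 16 below additivity. PL called 10 members (6.75% of all peaks were called), PH 4 (1.55%), LH 9 (4.88%) and PS 8 (4.59%). PcG called 4 (3.27%), ScG 17 (14.4%), ZS 2 (3.43%) and ZcG 5 (2.49%). In ScG, the pair is in the control-like set while both of its single ligands are outside it. In every pair but ZS, and in the 3 triplets below, the split between the mitochondrial sets does not cancel in the interaction term. Calls there cannot be told apart from that split. All 8 pair interactions at the Cdk6 peak 51.2 kb in were below additivity (-3.71 to -2.24), and 7 of 8 at the Mki67 peak 16.8 kb in were (-1.87 to -0.76, PS lowest with adjusted p = 2.07e-09). The pairs called at these peaks thus stayed short of the summed rises of their ligands. Start peaks went above additivity at Mcm3 (4 pairs, 0.58 to 0.69) and Ccna2 (4 pairs, 0.43 to 0.73), where the summed falls of the single ligands exceeded that of the pair. Start peaks of all genes leaned the same way, with more called above than below additivity in every pair but PcG. Their shares above and below were 8.19% and 2.12% in PL, 12.9% and 7.18% in ScG, and 1.19% and 1.55% in PcG. All interactions share the control libraries, so a control library that is low at a peak pushes every pair interaction there the same way.

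In at least 1 of the 3 triplet interactions 7 members (4.24%) were called, against 3.51% of all peaks, 5 above and 2 below additivity. PLH called 2 (0.784% of all peaks), PScG 5 (2.0%) and ZScG 4 (1.89%). The Mki67 peak 16.8 kb in was above the value predicted from singles and pairs in all 3 (1.43 to 1.89, PScG adjusted p = 0.000111), and the Cdk6 peak 51.2 kb in was so in PScG (3.22) and ZScG (3.37). Below it were the Cdk1 start in PScG (-0.84) and the E2f7 start in ZScG (-0.92).

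Other genes of the same pathway were read for comparison, 74 genes with 241 tested peaks. Of these 157 (65.1%, against 66.6% of all peaks) were called in at least 1 stimulation against control, 76 only higher, 75 only lower and 6 in both directions. By role, 7 of 22 further licensing peaks were higher and 6 lower, 24 and 21 of 61 at the fork, 4 and 7 of 16 in nucleotide supply, 17 and 29 of 65 in G1/S control, 23 and 14 of 59 in mitosis and 7 and 4 of 18 in checkpoints, with peaks called both ways counted in each. The median log2 fold change of the 241 stood at -0.01 for PLH, -0.02 for PScG and 0.02 for ZScG. The peaks called in the most stimulations in each direction included the start of Dut, which clears dUTP (lower in 17, mean -1.14), and that of Gadd45b, a stress-response gene (higher in 17, mean 1.11). Both were picked after their values were seen, and are given with TMM only.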

How the data were processed

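Chromatin accessibility was measured by ATAC-seq (50000 nuclei, 12 PCR cycles, 42-base reads, per the labels' protocols). The authors deposited raw counts per peak, whole numbers without normalization, for 1 peak list shared by all 36 libraries. The tools were Bowtie2 2.2.9, MACS2 (given as 1.4), bedtools and featureCounts with mm10, per the submitters' processing notes. Whether reads were shifted for the transposase, whether duplicates were removed and whether peaks came from pooled libraries is not given in the sources used here. Amplified reads carry no molecular barcodes, so a count of 0 is read with counting error only.

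1 peak over the mitochondrial genome (44.1% to 63.1% of counts) was left out, which was decided once the counts were known. Counts were scaled by TMM, filtered with filterByExpr (minimum count 10; 286 peaks dropped) and fitted in edgeR 4.0.16 (R 4.3.3, limma 3.58.1) by the quasi-likelihood method, with all 36 libraries in 1 fit with 18 residual degrees of freedom. Benjamini-Hochberg adjustment ran over 119464 peaks in each of 53 comparisons, and an adjusted p-value under 0.05 was called. The members, gene lists and comparisons were chosen with earlier results of these data known.

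Peaks with full values were those called in the most stimulations in each direction, the most changed in each triplet and control-like group, the lowest p in each other kind of comparison, the most changed start peak of each role, and the starts of Cdkn1a and the D cyclins. Alternatives were DESeq2 1.42.0 (size factors and Wald test), total counts, abundance-dependent offsets, no filter, the mitochondrial peak kept, a replicate block, thinned depth, only the groups compared, other flanks and each library left out. Same-numbered libraries of different groups did not deviate together (correlations of -0.040 to 0.030 over 153 pairs of groups), so the numbers do not pair them. Replicates correlated at 0.901 to 0.958 and differed beyond sampling noise, so none was counted as a repeat of another. The fit was tested on simulated data.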

Additional observations from a re-analysis of the deposited data

Results flagged for a closer look

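Departures from additivity were called at member peaks in all 8 pairs and all 3 triplets, by the interaction term of the fit. The pairs called 10 members in PL, 4 in PH, 9 in LH, 8 in PS, 4 in PcG, 17 in ScG, 2 in ZS and 5 in ZcG. The triplets called 2 in PLH, 5 in PScG and 4 in ZScG. The share of members called lay below that of all tested peaks in PL (6.06% against 6.75%), PcG (2.42% against 3.27%), ScG (10.3% against 14.4%) and ZS (1.21% against 3.43%), and above it in the other 7, from 4.85% against 4.59% in PS to 3.03% against 2.0% in PScG, with no test of these differences. Each call is a departure from the sum of log2 fold changes. In every pair but ZS, and in all 3 triplets, the split between the mitochondrial sets does not cancel in that sum. A call there cannot be told apart from the split. The peak 51.2 kb into Cdk6 was below additivity in 8 of 8 pairs, and the peak 16.8 kb into Mki67 in 7 of 8. All interactions share the 2 control libraries, and the first of these peaks rests on 7 and 3 control counts.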

How the results depend on the processing

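Values are the percent of tested member peaks called, without the share of all tested peaks under the same setting. They therefore do not separate a change at the members from a change over all peaks. The larger share at members than at all peaks in H was read in the main fit only. With total counts in place of TMM the share moved by over 1.5 times in L (26.7), S (32.7), cG (31.5), PcG (33.9), pair interactions (44.2) and triplet interactions (13.3), and with abundance offsets in H (7.27), PH (14.5), LH (10.9) and triplets against pairs (5.45). In Z it was 1.54 with only the groups compared, 1.21 with the DESeq2 Wald test, 1.38 without flanks and 5.12 with flanks of 10 kb. Thinning brought triplet interactions to 1.88. DESeq2 size factors, no filter and the mitochondrial peak kept moved no share by that much.

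Leaving out each library in turn gave 9.09 to 15.8 for P, 9.7 to 13.3 for L, 4.24 to 8.48 for H, 12.7 to 15.8 for S, 9.09 to 12.1 for cG and 0.606 to 1.82 for Z. It gave 15.2 to 18.2 for PL, 13.3 to 16.4 for PH, 10.9 to 14.5 for LH, 17 to 19.4 for PS, 17 to 21.8 for PcG, 8.48 to 10.9 for ScG, 13.3 to 15.8 for ZS and 6.67 to 7.88 for ZcG. For PLH it gave 12.7 to 21.2, for PScG 20.6 to 23.6 and for ZScG 15.2 to 17.6. Pairs against single ligands ran from 29.7 to 36.4, triplets against pairs from 6.06 to 9.09, pair interactions from 10.3 to 17.6 and triplet interactions from 1.82 to 5.45. The libraries that moved a share by over 1.5 times were control replicate 1 (P 10.3, H 4.24, cG 9.09, Z 1.21, PL 15.2, PH 13.3, LH 10.9, triplet interactions 1.82), control replicate 2 (H 6.06, pair interactions 10.3), and the group's own P replicate 2 (9.09), L 1 (9.7), H 2 (4.24), S 1 (12.7), Z 1 (1.21) and 2 (0.606), PL 2 (15.8), PH 2 (13.9), LH 1 (10.9), ScG 1 (8.48), ZcG 1 (6.67) and PLH 2 (12.7). In triplet interactions S 1, S 2 and cG 2 each gave 2.42. With 1 library left, a group was assumed to vary like the others.

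With the replicate number as a block, calls summed over the 17 stimulations were 198 higher and 315 lower, against 202 and 312 without it, and no share moved by over 1.5 times. Among single named peaks, 291 values with a library left out kept their side of the threshold, 36 lost it and 1 reversed: the ZScG value of the Mki67 peak 19.4 kb in, -0.62 without ZScG replicate 1 and 2.31 without replicate 2. Total counts lost 13 named calls and added 3, abundance offsets lost 4 and added 3. The cause of these changes was not tested. These tallies cover, for each named peak, only the stimulation of lowest p and the 3 triplets, with Z added at the Ccnd2 flanking peak. Over all calls of a peak, the part kept under every left-out library ran from none (Gins1 start, Mcm10 flank) to all (Ccnd2 start, Cdk6 peak 12.05 kb in). Depth limits the low peaks most: the folds at the Cdk6 peak 51.2 kb in and the Ccnd3 peak in Bysl rest on 7 and 3 and on 0 and 4 control counts.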

Other observations

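Peaks inside some genes of the wider replication and mitosis list, picked here after their values were seen, rose or fell in nearly every stimulation. A peak away from the start of Espl1, the separase that parts sister chromatids, was higher in 16 of 17 (mean log2 fold change 2.01). Tpx2, a spindle assembly factor, had such a peak higher in 16 (1.87), Kif23, a motor of cell division, in 14 (2.12) and Pola2, a subunit of DNA polymerase alpha, in 15 (2.56). In the other direction, a peak inside Lig1, the ligase that joins Okazaki fragments, was lower in 16 (-1.46), and 2 peaks inside Rb1, the retinoblastoma gene, in 15 (-1.61) and 14 (-0.95). The start peaks of Pola1, the catalytic subunit of DNA polymerase alpha, and Gmnn, the licensing inhibitor geminin, were lower in 16 stimulations each (-0.70 and -0.58), those of the spindle checkpoint genes Bub3 and Mad2l1 in 15 each (-0.46 and -0.53). All these counts are with TMM only. At the 40 member starts, lower calls numbered 136 with TMM, 16 with total counts and 50 with abundance offsets. Levels at the peaks picked here ranged from 1.79 CPM at Pola2 to 87.9 CPM at the Mad2l1 start. All 17 stimulations share the control libraries.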
